A study of Mus musculus with 12 samples.

Results

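The vitamin A (retinoid) genes *Rara*, *Rarg*, *Rxra*, *Aldh1a2*, *Dhrs3*, *Dhrs9*, *Tgm2* and *Rbp4*, together with the transcriptional repressor gene *Hic1*, were followed across mouse bone marrow cultures treated with indole-3-propionic acid (IPA), a tryptophan metabolite made by gut bacteria. These 9 genes were chosen by symbol from the 54532 genes of the count table, with earlier results of the same libraries already known. Which values guided that choice is not recorded, so the folds and calls of the 9 genes are given as a description and are not independent evidence. All 9 passed the filter of more than 0.5 CPM (reads of a gene scaled to its library's total) in at least 2 of the 12 libraries, which 14894 genes did.

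Wild-type C57BL/6 mouse bone marrow was cultured in RPMI with serum and the cytokines GM-CSF and IL-6, which drive myeloid differentiation, and all cultures were harvested on day 5 for stranded mRNA sequencing. The groups differed in what was added, namely DMSO vehicle, 10 µM IPA or 50 µM IPA, with 4 libraries in each. The paper calls 50 µM supraphysiological and reports slightly reduced cell viability at that dose in this culture, and no effect on viability at 10 µM. The part of reduced viability in the changes at 50 µM was not tested. The labels do not say whether the 4 libraries of a group came from separate mice or separate cultures, so the p-values below measure the spread between these libraries, which may be technical. No single cell type was purified from the cultures, and in such bulk RNA fewer cells of a type and less RNA per cell cannot be told apart.

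Each library held from 20451312 to 28038612 reads assigned to genes, and no library was a copy of another of its group. The 11 leukocyte and myeloid markers were all expressed, with summed levels between 21365 and 27225 CPM over the 12 libraries. Groups were compared with edgeR's quasi-likelihood test, and a gene was called at an adjusted p below 0.05 (Benjamini-Hochberg, over the 14894 genes).

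Retinol reaches cells bound to retinol-binding protein, is oxidised to retinal by dehydrogenases, and is oxidised further and irreversibly to retinoic acid by the ALDH1A enzymes. Retinoic acid binds the retinoic acid receptors (RAR), which pair with retinoid X receptors (RXR) on DNA and switch target genes on, and CYP26 enzymes break it down. In the immune system, dendritic cells and macrophages that express *Aldh1a2* (RALDH2) are known as sources of retinoic acid, and GM-CSF is known to raise *Aldh1a2* in them. *Hic1* encodes a zinc finger repressor that is known as a p53 target and, in intestinal immune cells, as a gene that responds to retinoic acid.

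On the GRCm38 assembly with GENCODE M21 genes, *Hic1* (ENSMUSG00000043099) lies on the minus strand of chromosome 11 from 75164565 to 75169519. *Aldh1a2* (ENSMUSG00000013584) lies on the plus strand of chromosome 9 from 71215789 to 71296243, *Dhrs3* (ENSMUSG00000066026) on the plus strand of chromosome 4 from 144892827 to 144928209, and *Dhrs9* (ENSMUSG00000027068) on the plus strand of chromosome 2 from 69380445 to 69404533. Among the receptors, *Rara* (ENSMUSG00000037992) lies on chromosome 11 from 98927818 to 98974942, *Rarg* (ENSMUSG00000001288) on chromosome 15 from 102234938 to 102257517, and *Rxra* (ENSMUSG00000015846) on chromosome 2 from 27676440 to 27762957. *Tgm2* (ENSMUSG00000037820) lies on chromosome 2 from 158116402 to 158146436, and 370 and 633 bases of its exons lie opposite exons of *Rprd1b* and *Gm20412*. The strand setting of the read counting is not given in the sources used here, so counts of *Tgm2* may include reads of these neighbours. *Rbp4* (ENSMUSG00000024990) lies on chromosome 19 from 38116629 to 38125281.

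The promoters of *Hic1*, *Aldh1a2*, *Dhrs3* and *Dhrs9*, whose levels are described most closely below, are shown because RAR and RXR bind pairs of AGGTCA-like hexamers, and because GCGTG is the core of the sites bound by the aryl hydrocarbon receptor (AHR), a receptor for indoles. The windows end at the base before a RefSeq start site on GRCm38.p6 and are written 5′ to 3′ on the gene's own strand. Capitals mark GCGTG and any of the hexamers AGGTCA or AGTTCA or GGGTCA or GGTTCA, each searched on both strands. *Hic1* is shown at chr11:75170256-75170505 (minus strand), before a RefSeq start that lies upstream of the gene bounds above. *Aldh1a2* is shown at chr9:71215539-71215788, *Dhrs3* at chr4:144892577-144892826 and *Dhrs9* at chr2:69380212-69380444, all on the plus strand, and the *Dhrs9* window was shortened where it ran into an exon.
Hic1: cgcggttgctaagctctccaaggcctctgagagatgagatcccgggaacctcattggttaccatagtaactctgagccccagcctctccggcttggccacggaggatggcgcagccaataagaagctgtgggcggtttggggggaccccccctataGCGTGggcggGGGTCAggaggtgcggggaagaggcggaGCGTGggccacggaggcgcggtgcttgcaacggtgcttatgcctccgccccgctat
Aldh1a2: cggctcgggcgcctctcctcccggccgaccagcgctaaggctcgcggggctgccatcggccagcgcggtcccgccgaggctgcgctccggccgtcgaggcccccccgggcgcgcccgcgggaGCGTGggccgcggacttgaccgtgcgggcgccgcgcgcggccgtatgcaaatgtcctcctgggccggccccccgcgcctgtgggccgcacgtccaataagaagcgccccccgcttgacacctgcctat
Dhrs3: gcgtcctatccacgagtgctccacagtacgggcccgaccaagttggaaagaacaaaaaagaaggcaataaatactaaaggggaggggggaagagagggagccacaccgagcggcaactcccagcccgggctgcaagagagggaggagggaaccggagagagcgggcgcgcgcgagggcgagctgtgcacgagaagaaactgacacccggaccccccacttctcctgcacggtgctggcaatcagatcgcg
Dhrs9: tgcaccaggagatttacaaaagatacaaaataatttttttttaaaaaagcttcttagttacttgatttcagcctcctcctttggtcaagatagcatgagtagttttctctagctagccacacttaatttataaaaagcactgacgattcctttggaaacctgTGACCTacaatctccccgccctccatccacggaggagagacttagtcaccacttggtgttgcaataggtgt

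The *Hic1* window held GGGTCA once, 84 bases before the start, and GCGTG 2 times. The window of a second *Hic1* start, at chr11:75168153-75168402, also held GGGTCA once and GCGTG once. *Aldh1a2* had 1 GCGTG and none of the hexamers, *Dhrs3* had neither, and *Dhrs9* had AGGTCA on the minus strand, which reads TGACCT above. Of the other members, 1 of 4 *Rara* windows held 4 hexamers, 1 of 2 *Rxra* windows held 3 and 1 of 2 *Rarg* windows held 1, and 1 of 2 *Rbp4* windows also held 1. GCGTG occurred 3 times in the other *Rarg* window, more than in either *Hic1* window, and once each in 1 window of *Rara* and 1 of *Rbp4*. No window of a member held 2 hexamers in the same direction with 1, 2 or 5 bases between them. Among 32851 RefSeq promoter windows of 250 bases, 14% held AGGTCA, 11.8% AGTTCA, 11.6% GGGTCA and 8.85% GGTTCA. At least 1 of the hexamers was present in 38.6%, GCGTG in 28.2%, and a direct repeat in 0.164% (1 base between), 0.174% (2 bases) and 0.0883% (5 bases). These letter matches are a description of the windows and not of binding.

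Compared per length of exon, as CPM divided by kilobases of exon (RPKM), the 9 genes spanned a wide range of levels with vehicle. *Tgm2*, a transglutaminase long known as a retinoic acid target, had the highest level (50.4 ± 3.00 RPKM, SD, n = 4), followed by *Rara* (39.7 ± 1.41, SD, n = 4). *Rxra* stood at 9.71 ± 0.939 RPKM (SD, n = 4), *Dhrs9* at 7.92 ± 0.898 (SD, n = 4), *Dhrs3* at 7.88 ± 0.608 (SD, n = 4), *Aldh1a2* at 6.81 ± 1.82 (SD, n = 4) and *Rarg* at 6.60 ± 0.788 (SD, n = 4). The library ranges of *Dhrs9*, *Dhrs3*, *Aldh1a2* and *Rarg* overlapped each other, and that of *Rxra* overlapped those of *Dhrs9* and *Aldh1a2*. *Hic1* (0.596 ± 0.339 RPKM, SD, n = 4) and *Rbp4* (0.152 ± 0.193, SD, n = 4) were far lower, and their ranges overlapped.

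At 50 µM IPA the order changed, with *Tgm2* (48.9 ± 3.46 RPKM, SD, n = 4) and *Rara* (40.4 ± 0.486, SD, n = 4) still on top. *Aldh1a2* came next at 21.8 ± 6.37 RPKM (SD, n = 4), with no library overlapping *Dhrs9* (13.2 ± 0.671, SD, n = 4), which overlapped *Dhrs3* (11.2 ± 1.72, SD, n = 4). *Rxra* (8.47 ± 0.683 RPKM, SD, n = 4) overlapped *Hic1* (6.88 ± 1.39, SD, n = 4), and *Hic1* overlapped *Rarg* (5.82 ± 0.219, SD, n = 4). *Hic1* thus stood between *Rarg* and *Rxra* in mean level and far below *Rara*, and *Rbp4* remained the lowest (0.428 ± 0.177, SD, n = 4). At 10 µM, *Dhrs9* (11.9 ± 0.345 RPKM, SD, n = 4), *Dhrs3* (11.2 ± 0.772, SD, n = 4), *Aldh1a2* (10.9 ± 2.31, SD, n = 4) and *Rxra* (10.7 ± 0.484, SD, n = 4) stood close together, and all of their ranges overlapped but those of *Dhrs9* and *Rxra*.

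**Figure D1:**
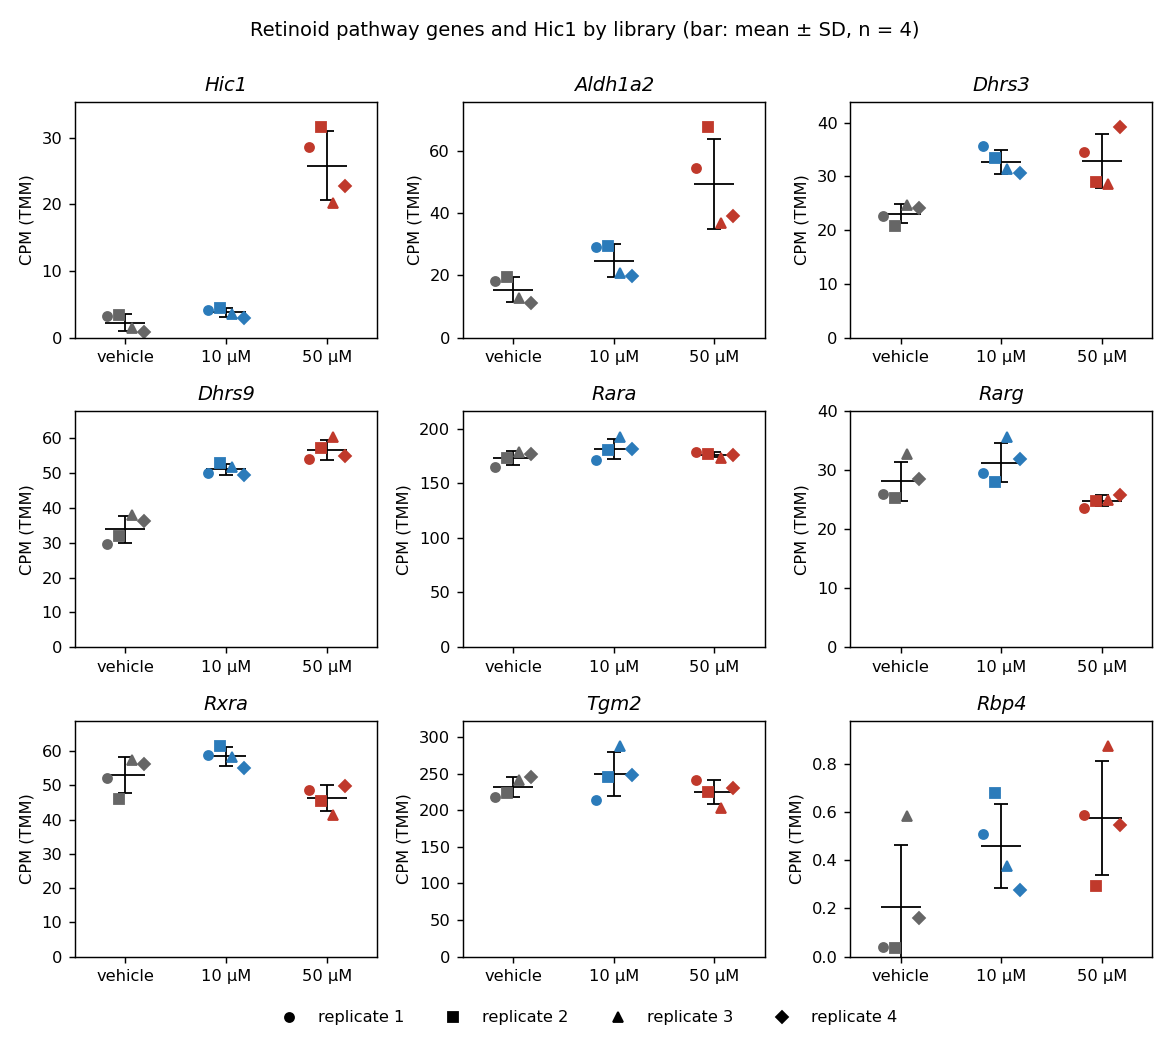
Level of each gene (y axis, CPM after TMM normalization, starting at 0 and scaled per gene) in the vehicle, 10 µM and 50 µM IPA libraries (x axis). Symbols are single libraries by replicate number and bars give the mean ± SD of 4 libraries, cut off at 0 for *Rbp4* with vehicle. *Hic1* lies between 20.2 and 31.6 CPM at 50 µM and at 4.50 CPM or below in the other groups, the 3 groups of *Aldh1a2* do not overlap, and *Dhrs3* and *Dhrs9* lie above vehicle at both doses.

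*Aldh1a2*, whose enzyme makes retinoic acid, was higher at 50 µM IPA than with vehicle and than at 10 µM. It read 18.2, 19.5, 12.8 and 11.1 CPM in vehicle replicates 1 to 4, 29.2, 29.3, 20.8 and 19.6 CPM at 10 µM, and 54.5, 67.6, 36.8 and 38.9 CPM at 50 µM. The 3 groups did not overlap, and each library at 50 µM lay above each library at 10 µM, which in turn lay above each vehicle library. Against vehicle, the log2 fold change was 0.68 at 10 µM (SE, the standard error, 0.19, edgeR adjusted p = 0.231), which did not pass the threshold, and 1.69 at 50 µM (SE 0.21, adjusted p = 0.000175). Between 50 µM and 10 µM it was 1.01 (SE 0.18, adjusted p = 0.00111). At 10 µM against vehicle, *Aldh1a2* passed with DESeq2 (adjusted p = 0.0370) and without the filter on low counts (edgeR adjusted p = 0.0372). It passed in 0 of the 8 edgeR fits with a library dropped, where the adjusted p reached 0.597 and the log2 fold change lay between 0.55 and 0.81.

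The short-chain dehydrogenases *Dhrs3*, which reduces retinal back to retinol and is itself induced by retinoic acid, and *Dhrs9*, which oxidises retinol, were higher at both doses. *Dhrs3* read 22.7, 20.7, 24.7 and 24.2 CPM with vehicle, 35.6, 33.5, 31.3 and 30.6 CPM at 10 µM, and 34.5, 28.9, 28.6 and 39.2 CPM at 50 µM. Both IPA groups lay above the vehicle range and overlapped each other. The log2 fold change against vehicle was 0.51 at 10 µM (SE 0.08, edgeR adjusted p = 0.0315) and 0.52 at 50 µM (SE 0.11, adjusted p = 0.00811). Between the doses it was 0.01, with a 95% interval from -0.21 to 0.22 (edgeR adjusted p = 0.982).

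*Dhrs9* read 29.5, 32.0, 38.0 and 36.1 CPM with vehicle, 50.2, 52.9, 51.7 and 49.6 CPM at 10 µM, and 54.1, 57.2, 60.5 and 55.0 CPM at 50 µM. No library of one group fell into the range of another, and the step from vehicle to 10 µM was larger than that from 10 µM to 50 µM. The log2 fold change against vehicle was 0.59 at 10 µM (SE 0.08, edgeR adjusted p = 0.0164) and 0.75 at 50 µM (SE 0.09, adjusted p = 0.000165). Between the doses it was 0.15, with a 95% interval from 0.01 to 0.30 (edgeR adjusted p = 0.137).

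The calls of both genes at 10 µM were lost in several fits on 7 libraries, while the fold changes stayed near those of all 8. When libraries were dropped one at a time, *Dhrs3* failed the threshold in 7 of 8 edgeR fits, its adjusted p ranging from 0.0536 (10 µM replicate 4 dropped) to 0.155 (10 µM replicate 2 dropped), and it passed with vehicle replicate 4 dropped (edgeR adjusted p = 0.0185). *Dhrs9* did not pass without vehicle replicate 1 (adjusted p = 0.0652), vehicle replicate 2 (0.0546), 10 µM replicate 2 (0.0972) or 10 µM replicate 3 (0.0778), each by edgeR's test. The log2 fold changes in these fits lay between 0.46 and 0.54 for *Dhrs3* and between 0.53 and 0.65 for *Dhrs9*. At 50 µM both passed in all 8 such fits, where the adjusted p was at most 0.0282 for *Dhrs3* and 0.00127 for *Dhrs9* from edgeR's test. With a term for the replicate number (a replicate block) on all 8 libraries, neither gene was called at 10 µM. The edgeR adjusted p was then 0.233 for *Dhrs3* and 0.170 for *Dhrs9*.

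*Hic1* had the largest change of the 9 genes, and the larger step lay between 10 µM and 50 µM. It read 3.22, 3.42, 1.43 and 0.875 CPM in vehicle replicates 1 to 4, 4.17, 4.50, 3.61 and 2.93 CPM at 10 µM, and 28.6, 31.6, 20.2 and 22.8 CPM at 50 µM. Vehicle and 10 µM overlapped, while the lowest library at 50 µM stood well above the highest of both other groups. These levels rest on between 22 and 92 reads per library with vehicle, between 64 and 115 at 10 µM and between 417 and 862 at 50 µM. The log2 fold change of *Hic1* was 3.52 at 50 µM against vehicle (SE 0.30, an 11.5-fold rise, edgeR adjusted p = 9.19e-06) and 2.77 at 50 µM against 10 µM (SE 0.16, 6.80-fold, adjusted p = 2.41e-08). At 10 µM against vehicle it was 0.76 with a 95% interval from -0.04 to 1.55 (edgeR adjusted p = 0.591). Leaving out any 1 library gave log2 fold changes between 3.25 and 3.79 at 50 µM against vehicle, all past the threshold.

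The receptor genes showed small differences. *Rara*, which encodes the retinoic acid receptor alpha of myeloid cells, ranged from 165 to 178 CPM with vehicle, from 171 to 193 CPM at 10 µM and from 173 to 179 CPM at 50 µM. The 3 groups overlapped, and its log2 fold change was 0.07 at 10 µM (95% interval -0.07 to 0.20, edgeR adjusted p = 0.859) and 0.03 at 50 µM (95% interval -0.10 to 0.17, adjusted p = 0.791).

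*Rarg*, the gamma receptor, read 26.0, 25.3, 32.7 and 28.5 CPM with vehicle, 29.5, 28.1, 35.7 and 32.0 CPM at 10 µM, and 23.6, 24.9, 24.9 and 25.9 CPM at 50 µM. *Rxra*, the partner of both, read 52.1, 46.1, 57.4 and 56.3 CPM with vehicle, 58.8, 61.5, 58.3 and 55.1 CPM at 10 µM, and 48.7, 45.4, 41.4 and 49.7 CPM at 50 µM. In both genes the vehicle libraries overlapped both IPA groups, while every library at 50 µM lay below every library at 10 µM. Against vehicle neither passed, with log2 fold changes of 0.16 and 0.14 at 10 µM (edgeR adjusted p = 0.767 and 0.697) and -0.17 and -0.19 at 50 µM (adjusted p = 0.271 and 0.203). Between 50 µM and 10 µM both were lower, by -0.33 on the log2 scale for *Rarg* (SE 0.09, edgeR adjusted p = 0.0177) and -0.33 for *Rxra* (SE 0.07, adjusted p = 0.00651). With 10 µM replicate 3 dropped, *Rarg* changed by -0.26 and did not pass (edgeR adjusted p = 0.0740), while *Rxra* passed in each of the 8 fits with a library dropped.

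*Tgm2* ranged from 218 to 246 CPM with vehicle, from 215 to 288 CPM at 10 µM and from 204 to 242 CPM at 50 µM. Its groups overlapped in all 3 comparisons, and the log2 fold change was 0.10 at 10 µM (95% interval -0.09 to 0.29, edgeR adjusted p = 0.840) and -0.04 at 50 µM (95% interval -0.20 to 0.12, adjusted p = 0.793). *Rbp4*, the serum carrier of retinol, was close to the limit of detection, with 1, 1, 13 and 4 reads with vehicle, 14, 14, 10 and 6 at 10 µM and 12, 8, 18 and 13 at 50 µM. These reads overlapped between groups, and the log2 fold changes against vehicle of 1.20 at 10 µM (SE 0.75, edgeR adjusted p = 0.744) and 1.52 at 50 µM (SE 0.74, adjusted p = 0.198) did not pass. *Rbp4* did pass at 50 µM without vehicle replicate 3, the vehicle library with 13 reads (log2 fold change 2.82, edgeR adjusted p = 0.0364), and without that library the log2 fold change at 10 µM was 2.50 (adjusted p = 0.316).

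**Figure D2:**
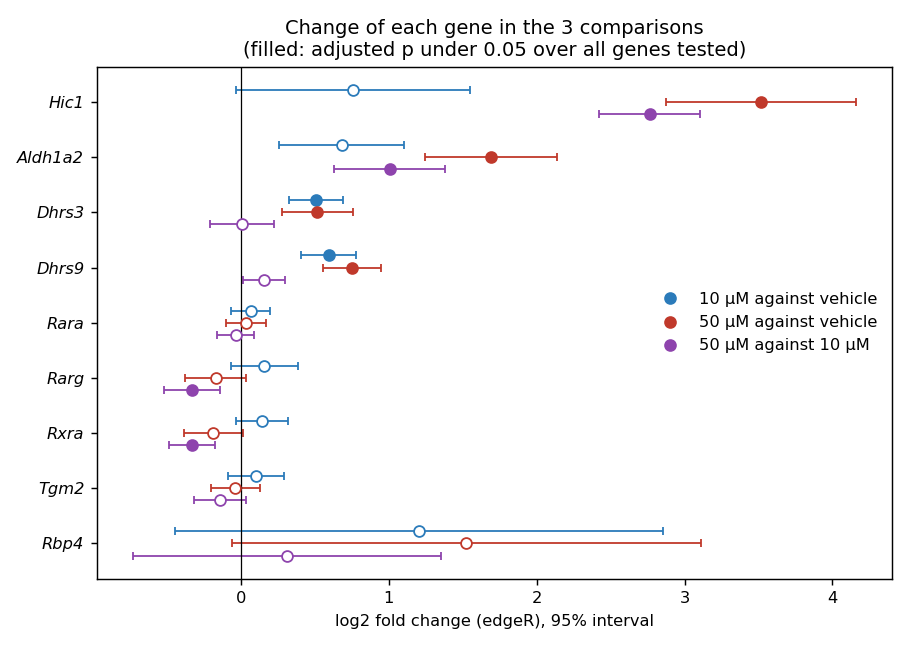
Log2 fold change from edgeR (x axis) of each gene (y axis) in the 3 comparisons, with 95% intervals as bars and filled points for an adjusted p under 0.05 over all 14894 genes tested. *Hic1* and *Aldh1a2* lie to the right in both comparisons of 50 µM, *Dhrs3* and *Dhrs9* lie to the right against vehicle at either dose, and *Rarg* and *Rxra* are filled and left of 0 only between the doses.

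Counted over the 9 genes, 2 were called higher at 10 µM and none lower, where 0.329% of all genes tested were called higher and 0.0806% lower. Groups without overlap were found for 3 of the 9 (*Aldh1a2*, *Dhrs3* and *Dhrs9*) and for 6.13% of all genes. At 50 µM, 4 of the 9 were called higher and none lower, against 7.00% higher and 6.50% lower of all genes, and the same 4 had no overlap with vehicle, against 20.0% of all genes. Between 50 µM and 10 µM, 2 were called higher and 2 lower, against 7.52% and 7.85% of all genes, and 5 had no overlap, against 20.3%. Since the genes were chosen with these comparisons known, nothing is read from their shares. The median log2 fold change of the 9 was 0.51 at 10 µM, 0.52 at 50 µM and 0.01 between the doses, and that of all genes was -0.01, 0.01 and 0.01. The comparisons of 10 µM and 50 µM with vehicle share the 4 vehicle libraries.

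The rest of the pathway was described with 89 further genes in 10 lists, of which 53 were tested and 14 had no read in any library. None of the 53 was called at 10 µM by edgeR's test with the settings used throughout or by limma-voom, 2 were called by DESeq2, 1 by edgeR with all 12 libraries in 1 fit, with the exon length offset or without vehicle replicate 4, and 6 had an unadjusted p under 0.05 in edgeR's test, as did 1308 (8.78%) of the 14894 genes. At 50 µM against vehicle 11 of the 53 were called, 6 higher and 5 lower, beside the 7.00% higher and 6.50% lower of all genes, and 7 were called without vehicle replicate 3 or without 50 µM replicate 2 or 4. Between 50 µM and 10 µM 12 were called, 7 higher and 5 lower, beside 7.52% and 7.85% of all genes. Their median log2 fold changes were -0.05, 0.04 and 0.04, close to those of all genes.

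Among the genes that make and break down retinoic acid, *Cyp26b1* was called against vehicle at 50 µM and no other beside *Aldh1a2* was. This gene of a retinoic acid breakdown enzyme read 1.70, 1.56, 1.30 and 1.87 CPM with vehicle, 2.46, 1.74, 1.02 and 1.60 CPM at 10 µM, and 0.440, 0.623, 0.486 and 0.336 CPM at 50 µM. All 4 libraries at 50 µM lay below all others, on between 8 and 17 reads each. The log2 fold change of *Cyp26b1* was -1.75 at 50 µM against vehicle (SE 0.34, edgeR adjusted p = 0.00437) and -1.83 against 10 µM (SE 0.38, adjusted p = 0.00399).

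*Cyp26a1*, the breakdown enzyme best known for induction by retinoic acid, ranged from 1.91 to 2.27 CPM with vehicle, from 0.471 to 2.45 CPM at 10 µM and from 1.86 to 4.66 CPM at 50 µM. The groups overlapped, and the log2 fold change of 0.69 at 50 µM against vehicle did not pass (SE 0.27, edgeR adjusted p = 0.110). *Cyp26c1* had at most 7 reads in any library and was not tested.

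Of the paralogs of *Aldh1a2*, *Aldh1a3* was higher at 50 µM than at 10 µM (log2 fold change 0.90, SE 0.25, edgeR adjusted p = 0.0245), although the groups overlapped, and not against vehicle (0.52, adjusted p = 0.124). *Aldh1a1* ranged from 0.928 to 1.88 CPM with vehicle and from 1.02 to 3.08 CPM at 50 µM, and its log2 fold change of 0.72 did not pass (SE 0.36, edgeR adjusted p = 0.208). Per length, *Aldh1a2* was the most abundant of the 3 in every group, with 6.81 RPKM with vehicle against 0.859 for *Aldh1a3* and 0.261 for *Aldh1a1*. *Aldh8a1*, a more distant relative, had at most 3 reads in any library.

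No other retinol or retinal oxidoreductase was called at either dose against vehicle by edgeR's test, where 1 of the 8 tested at 10 µM and 4 of the 8 at 50 µM had an unadjusted p under 0.05, beside 8.78% and 27.9% of all genes. *Dhrs4*, a retinal reductase, was lower at 50 µM than at 10 µM (10.7 against 14.3 CPM, log2 fold change -0.42, SE 0.12, edgeR adjusted p = 0.0278). *Rdh10*, the main retinol dehydrogenase of the embryo, ranged from 4.35 to 6.57 CPM with vehicle and from 4.13 to 5.04 CPM at 50 µM (log2 fold change -0.29, edgeR adjusted p = 0.290). *Rdh11* ranged from 33.7 to 38.6 CPM with vehicle and from 40.2 to 53.9 CPM at 50 µM without overlap, and did not pass (log2 fold change 0.31, edgeR adjusted p = 0.0577). *Rdh12*, *Rdh13* and *Rdh14* were expressed between 6.32 and 17.7 CPM with vehicle, *Rdh1*, *Rdh5*, *Rdh9* and *Rdh16* had at most 16 reads in any library, and *Rdh7* and *Rdh18-ps* had none.

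Of the other receptor genes, *Rxrg* and *Rarb*, a classical retinoic acid target, were hardly expressed. *Rarb* had 0, 1, 1 and 0 reads with vehicle, 0, 7, 5 and 0 at 10 µM and 6, 9, 3 and 11 at 50 µM, and *Rxrg* at most 3 in any library, so neither was tested. *Rxrb* ranged from 51.3 to 58.1 CPM with vehicle and from 49.5 to 58.4 CPM at 50 µM (log2 fold change -0.003, edgeR adjusted p = 0.988). Of the 12 corepressors and coactivators tested, 1 was called, the coactivator gene *Ncoa3*, which was higher at 50 µM than at 10 µM (log2 fold change 0.30, SE 0.08, edgeR adjusted p = 0.0132), beside 7.52% of all genes called higher in that comparison.

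Among 8 tested receptors that pair with RXR or share its response elements, *Pparg*, a lipid-sensing receptor, was lower at 50 µM. It ranged from 28.7 to 37.2 CPM with vehicle, from 29.4 to 35.8 CPM at 10 µM and from 17.99 to 23.9 CPM at 50 µM. The 50 µM group lay below both others, with a log2 fold change of -0.68 against vehicle (SE 0.11, edgeR adjusted p = 0.00165) and -0.68 against 10 µM (SE 0.10, adjusted p = 0.000297). The vitamin D receptor gene *Vdr* (log2 fold change 0.38, edgeR adjusted p = 0.0454) and the thyroid hormone receptor gene *Thra* (0.41, adjusted p = 0.0471) were higher at 50 µM than with vehicle, and *Nr4a1* (0.43, adjusted p = 0.0446) was higher at 50 µM than at 10 µM. These calls, 2 higher and 1 lower of 8 against vehicle and 1 of each between the doses, stand beside 7.00% and 6.50% of all genes against vehicle and 7.52% and 7.85% between the doses.

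The list of genes known to respond to retinoic acid held 19 genes beside the members, and 10 were tested. None was called at 10 µM by edgeR's test, where 2 of the 10 had an unadjusted p under 0.05, beside 8.78% of all genes. At 50 µM against vehicle 3 were higher and 2 lower, beside 7.00% and 6.50% of all genes. *Asb2*, a ubiquitin ligase subunit gene induced by retinoic acid in leukaemia cells, read 52.0, 55.1, 40.6 and 38.1 CPM with vehicle, 41.0, 47.2, 34.9 and 39.0 CPM at 10 µM, and 118.5, 144.4, 117.3 and 95.5 CPM at 50 µM. The 50 µM group stood apart from both others, with a log2 fold change of 1.37 against vehicle (SE 0.14, edgeR adjusted p = 3.55e-05), while 10 µM differed by -0.20 (adjusted p = 0.762).

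*Rai14*, named for its induction by retinoic acid, stood at 31.2 CPM with vehicle and 65.4 CPM at 50 µM (log2 fold change 1.08, SE 0.11, edgeR adjusted p = 6.28e-05). *Cd38*, an ectoenzyme gene that retinoic acid induces in myeloid leukaemia cells, stood at 114.6 and 176 CPM (log2 fold change 0.63, SE 0.08, edgeR adjusted p = 0.000183). The 2 lower genes were *Cyp26b1* and *Cebpe*, a factor of granulocyte differentiation (108.6 and 86.9 CPM, log2 fold change -0.31, SE 0.08, edgeR adjusted p = 0.0231).

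Of the 7 genes of the list on HIC1, *Mta1*, which encodes a partner of HIC1 in repression, was higher at 50 µM than with vehicle (61.3 and 76.1 CPM, log2 fold change 0.32, SE 0.07, edgeR adjusted p = 0.00872), and *Trp53* was lower (143 and 119.4 CPM, log2 fold change -0.25, SE 0.07, adjusted p = 0.0372), beside 7.00% of all genes higher and 6.50% lower. *Hic2*, the paralog of *Hic1*, ranged from 2.55 to 3.49 CPM with vehicle, from 2.03 to 3.05 CPM at 10 µM and from 2.33 to 3.53 CPM at 50 µM. These ranges overlapped, and the log2 fold change of *Hic2* at 50 µM was -0.03 (95% interval -0.47 to 0.41, edgeR adjusted p = 0.946).

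Of the 3 other transglutaminase genes tested, *F13a1*, the A chain of clotting factor XIII made by monocytes and macrophages, was lower at 50 µM. It read 66.6, 75.1, 184.7 and 213 CPM with vehicle, 163, 175, 273 and 266 CPM at 10 µM, and 52.1, 21.7, 28.3 and 39.8 CPM at 50 µM. The vehicle libraries spread widely and overlapped those at 10 µM, and all libraries at 50 µM lay below them. The log2 fold change of *F13a1* was -1.92 against vehicle (SE 0.36, edgeR adjusted p = 0.00357) and -2.63 against 10 µM (SE 0.23, adjusted p = 1.62e-06). Of all genes tested, 6.50% were called lower at 50 µM against vehicle and 7.85% against 10 µM. In retinoid transport, *Stra6l*, which encodes a receptor for RBP4, stood at 3.41 CPM at 10 µM and 1.97 CPM at 50 µM (log2 fold change -0.79, SE 0.25, edgeR adjusted p = 0.0419), and its log2 fold change at 10 µM over vehicle did not pass (1.23, adjusted p = 0.0539).

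**Figure D3:**
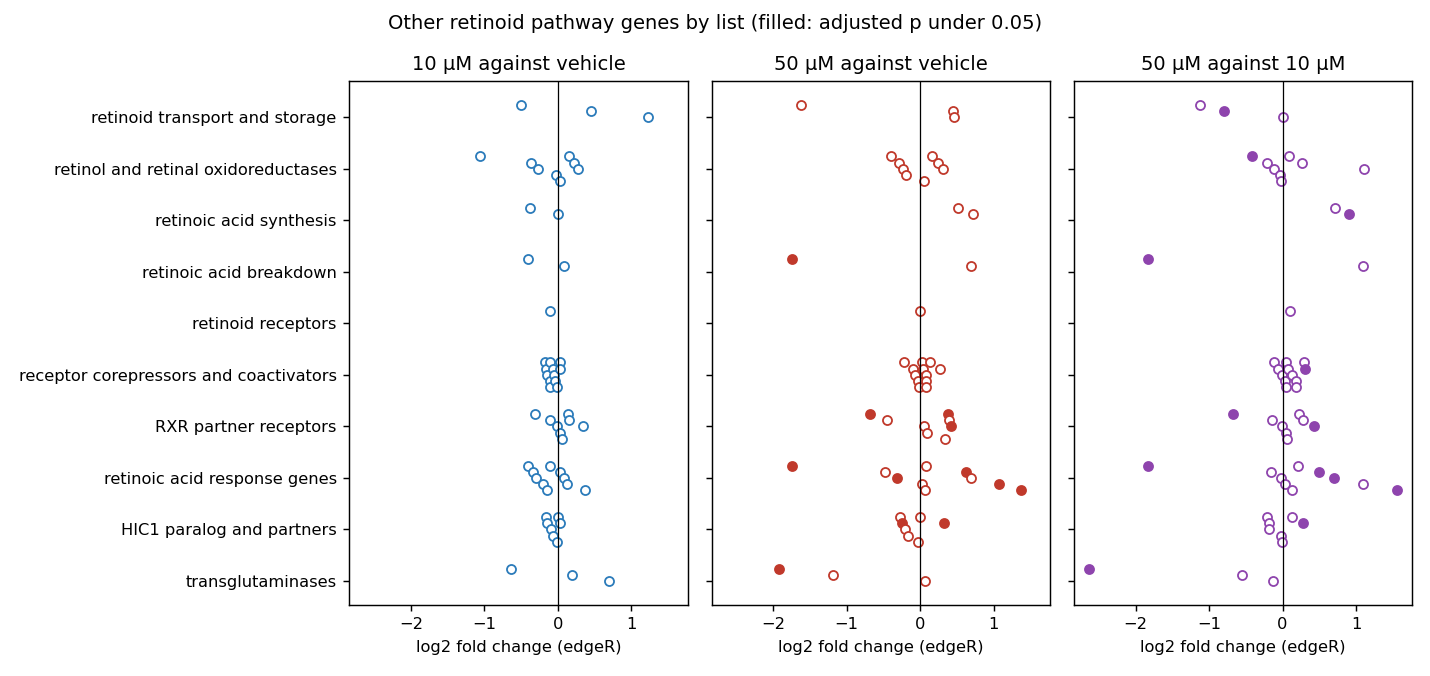
Log2 fold change from edgeR (x axis) of the 53 tested pathway genes beside the 9 members, by list (y axis; a gene can stand in more than 1 list), with 1 panel per comparison and filled points for an adjusted p under 0.05. No point is filled at 10 µM, and at 50 µM the filled points lie on both sides of 0, with *F13a1* and *Cyp26b1* farthest to the left and *Asb2* farthest to the right.

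Genes that mark cell types were read beside these results. Of 11 dendritic cell markers, 6 were higher at 50 µM than with vehicle by edgeR's test (*Batf3*, *Zbtb46*, *Ccl22*, *Ccl17*, *Itgae* and *Ccr7*) and 1, *H2-Ab1*, was lower, beside 7.00% and 6.50% of all genes. *Ccl22*, a chemokine gene of dendritic cells, stood at 471 CPM with vehicle and 850 CPM at 50 µM (log2 fold change 0.86, edgeR adjusted p = 0.000261). The summed level of the 11 ranged from 2030 to 2142 CPM with vehicle, from 1996 to 2488 CPM at 10 µM and from 2237 to 2847 CPM at 50 µM, and 50 µM did not overlap vehicle. The largest rises in mean CPM within this sum were those of the chemokine genes *Ccl22* and *Ccl17* (239 CPM with vehicle and 374 CPM at 50 µM). The mean of *H2-Ab1* was 647 CPM with vehicle and 476 CPM at 50 µM. The 10 macrophage markers summed to between 839 and 1015 CPM with vehicle, between 1143 and 1276 CPM at 10 µM and between 1049 and 1093 CPM at 50 µM.

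The 8 neutrophil markers summed to between 11013 and 14072 CPM with vehicle, between 9811 and 11676 CPM at 10 µM and between 7461 and 9634 CPM at 50 µM, where 6 of the 8 were lower than with vehicle by edgeR's test, beside 6.50% of all genes. The 7 B and T cell markers summed to between 12.1 and 19.3 CPM with vehicle, between 17.5 and 22.9 CPM at 10 µM and between 27.6 and 42.0 CPM at 50 µM, where 4 B cell genes of the 6 genes tested were higher, beside 7.00% of all genes. *Hic1* is also expressed by stromal cells, and the 12 stromal and endothelial markers summed to between 55.7 and 70.8 CPM with vehicle, between 71.1 and 86.1 CPM at 10 µM and between 51.2 and 62.3 CPM at 50 µM. Most of this sum was *Pecam1*, a gene of endothelial cells and leukocytes, with means of 45.8, 59.4 and 44.2 CPM. Among the 12, *Col1a2*, *Col3a1*, *Pdgfra*, *Cxcl12*, *Dcn* and *Lum* had means of at most 0.142 CPM in every group. Of the 6 that were tested, *Lepr* was called at 50 µM against vehicle, as lower, beside 6.50% of all genes. The 10 markers of eosinophils, mast cells and basophils summed to between 1239 and 1498 CPM with vehicle, between 1036 and 1306 CPM at 10 µM and between 1044 and 1345 CPM at 50 µM. No marker was at 0 in all libraries. The part of the dendritic cell, macrophage, neutrophil and B cell markers in the changes of *Hic1*, *Aldh1a2*, *Dhrs3* and *Dhrs9* was not tested.

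The genes with the profile most like that of *Hic1*, *Aldh1a2* and *Dhrs3* were found by the root mean square difference of log2 CPM over the 12 libraries, each gene centred on its own mean, among the 12606 genes whose mean reached 1 CPM. For *Hic1*, whose own log2 CPM varied by 1.63 around its mean, the closest was *Cyp1b1* (difference 0.52), a cytochrome P450 gene and a known AHR target. It stood at 12.0 CPM with vehicle, 12.6 CPM at 10 µM and 124 CPM at 50 µM. The next were *Avil*, an actin-binding protein gene (difference 0.66, with 1.08, 1.53 and 6.73 CPM), and *Gdf15*, a stress-induced cytokine gene (difference 0.66, with 1.71, 2.45 and 9.86 CPM).

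For *Aldh1a2*, with a variation of 0.76 around its mean, the closest were *Palld* (difference 0.24), *Pacsin1* (0.25) and *Ltbp3* (0.27). *Palld*, which encodes an actin-bundling protein, stood at 13.1, 20.6 and 41.8 CPM in the vehicle, 10 µM and 50 µM groups, and *Ltbp3*, which encodes a protein that binds latent TGF-beta, at 8.09, 12.0 and 27.3 CPM. For *Dhrs3*, with a variation of 0.27, the closest were *Lhfpl2* (difference 0.10), *Jup* (0.13) and *Mmp19* (0.13). *Lhfpl2* stood at 44.4, 58.1 and 60.0 CPM, and *Mmp19*, a matrix metalloproteinase gene, at 131, 167 and 156 CPM. These are descriptions over 12 libraries that share the group differences.

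**Figure D4:**
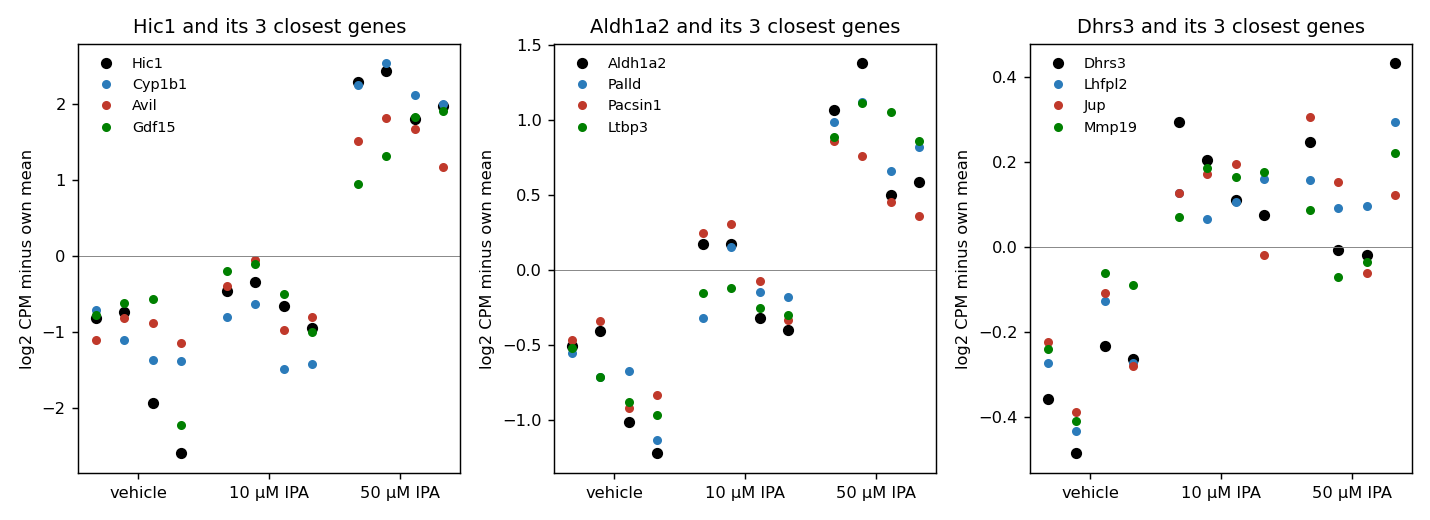
Centred log2 CPM (y axis, each gene minus its own mean over 12 libraries) of *Hic1*, *Aldh1a2* and *Dhrs3* (large black points) and the 3 genes with the smallest difference from each (coloured points), by library in the vehicle, 10 µM and 50 µM IPA groups (x axis, replicates 1 to 4 from left to right in each group). *Hic1* and *Cyp1b1* lie at 1.80 or above at 50 µM and below 0 in the other groups, *Aldh1a2* and its neighbours lie above 0 at 50 µM and below 0 with vehicle, and *Dhrs3* and its neighbours lie below 0 with vehicle.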

How the data were processed

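Before deposit, RNA-seq reads were trimmed by the authors (Atropos), mapped to mm10 (HISAT2 2.2.1) and assigned to Ensembl genes (featureCounts 2.0.1). The deposited values are raw counts per gene, without normalization or filter. Groups came from the treatment labels. For replicate 3 at 10 µM, whose title is the same as that of replicate 2, the library name gave the number.

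The 3 pairs of groups were compared, each on its 8 libraries, with edgeR 4.0.16 (TMM, glmQLFit and glmQLFTest) in R 4.3.3, on the 14894 genes above 0.5 CPM in 2 or more of the 12 libraries. P-values were two-sided and adjusted by the Benjamini-Hochberg method over all genes tested, with a threshold of 0.05. Standard errors are the absolute log2 fold change divided by the square root of F, and 95% intervals follow from them. The test was checked on simulated counts. CPM is TMM-normalized over the 12 libraries and RPKM uses GENCODE M21 exon length. With 20451312 to 28038612 counts per library, 1 read is worth less than 0.05 CPM, and levels of a few reads are imprecise.

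The members and gene lists were chosen with earlier results of these data known. Named are all members, listed genes called in any comparison, the receptors, synthesis and breakdown enzymes, Dhrs and Rdh enzymes and *Hic2* whatever their value, and the 3 genes closest in profile to *Hic1*, *Aldh1a2* and *Dhrs3*. Alternatives were DESeq2 1.42.0, limma-voom (limma 3.58.1), DESeq2's size factors, no filter, a minimum of 10 counts per library, all 12 libraries in 1 fit, a replicate block, an exon length offset (lowess, span 0.3) and leaving out each library. Promoters are from RefSeq (GRCm38.p6), with no entry used for *Tgm2*. Calls of single macrophage markers are not reported here. Plots were drawn with matplotlib 3.10.9.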

Additional observations from a re-analysis of the deposited data

How the results depend on the processing

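At 50 µM against vehicle and between the doses, the same number of the 9 genes, 4, was called under every alternative that kept all libraries. Leaving out 1 library gave 4 to 5 at 50 µM against vehicle (5 without vehicle replicate 3, with *Rbp4*), 3 to 4 between the doses (3 without replicate 3 of the 10 µM group, where *Rarg* was lost) and 0 to 2 at 10 µM against vehicle. It was 0 without vehicle replicate 1 or 2 and without replicate 2 or 3 of the 10 µM group. At 10 µM, where 2 were called, DESeq2 and no filter called 3 and the replicate block 0 (*Dhrs3* adjusted p = 0.233 and *Dhrs9* adjusted p = 0.170, with log2 fold changes of 0.51 and 0.60). The numbers were not taken to pair the samples, since same-numbered samples did not deviate together (correlations from -0.24 to 0.14). With 4 libraries in each group, such correlations cannot exclude a pairing. The paper used a repeated-measures test for cell viability and Ly6C-high monocytes in this kind of culture. The block changed no other member's call.

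Of the other pathway genes, 0 were called at 10 µM in the edgeR test, 2 with DESeq2, and 1 each with no filter, a minimum of 10 counts per library, all 12 libraries in 1 fit or the exon length offset. Leaving out 1 library gave 0 to 1 (1 without vehicle replicate 4). At 50 µM against vehicle, where 11 were called, it gave 7 (without vehicle replicate 3 or replicate 2 or 4 of the 50 µM group) to 14, and between the doses, where 12 were called, 8 to 14. Over all genes, the 61 called at 10 µM became 250 with DESeq2, 150 with no filter, 118 with all 12 libraries, 101 with the exon length offset and 3 with the replicate block, and 4 to 122 with 1 library left out. The cause was not tested.

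Of 212 values of single members under alternatives with all libraries, 205 kept direction and side of the threshold, and so did 198 of 216 with 1 library left out. The 8 that changed sign were near 0. *Tgm2* at 50 µM against vehicle lay between -0.0808 and 0.0018 with 1 library left out (0.0018 without replicate 3 of the 50 µM group). *Dhrs3* between the doses was -0.0073 with limma-voom, -0.0032 with the replicate block and -0.0042 with the exon length offset, and it lay between -0.0915 and 0.0658 with 1 library left out, below 0 without replicate 3 or 4 of the 10 µM group or replicate 1 or 4 of the 50 µM group. Low counts limit *Rbp4*, *Cyp26b1* and *Hic1* with vehicle.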

Other observations

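In all 3 groups, replicates 1 and 2 lay above replicates 3 and 4 in *Hic1* and *Aldh1a2*, a pattern noticed after the values were seen. Of the 14894 genes tested, 137 (0.92%) had this pattern, among them the dendritic cell chemokine genes *Ccl22* and *Ccl17* and the retinoid response gene *Asb2* as well as *Vdr*. The opposite pattern, with replicates 1 and 2 below replicates 3 and 4 in all 3 groups, was found for 144 genes (0.967%), among them *Rarg* and the neutrophil genes *Cxcr2*, *S100a9*, *Ngp* and *Ly6g*. The labels do not say what the replicate numbers mark, and the part of this split in the results was not tested.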
